A study of Mus musculus with 30 samples.

Results

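The transcripts of 5 bone morphogenetic protein (BMP) ligands, Bmp2, Bmp4, Bmp5, Bmp6 and Bmp7, and of 5 secreted BMP antagonists, Nog, Grem1, Chrd, Chrdl1 and Fst, were followed through the healing of a tibial fracture in WT and Apex1 KO mice. These 10 genes were taken by name from the 55416 genes of the count table, and all 10 had enough counts to be tested in every comparison. RNA was extracted from the fracture callus of 30 mice (at 3-dpf the tissue dissected around the break), 1 library a mouse, at 3, 6, 10 and 14 days post-fracture (dpf) of a closed, non-stabilized break of the tibial shaft made in young adult mice. The Apex1 KO mice were Prrx1-Cre+;Apex1 C/C, and there were 4 of them at 3-dpf and 3 each at 6-, 10- and 14-dpf. The WT group held 4 mice at 3-, 10- and 14-dpf and 5 at 6-dpf. It was made of littermates without deletion of both alleles, namely Prrx1-Cre+/-;Apex1 C/+, Apex1 C/C or Apex1 C/+. A WT mouse could thus carry Cre and 1 floxed allele, and the labels do not say whether any did. Prrx1-Cre acts in limb bud mesenchyme and its descendants. Blood, vessel and muscle cells do not descend from it and are not its targets. Apex1 encodes a base excision repair endonuclease that also regulates the redox state of transcription factors.

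BMPs are secreted dimers of the TGF-β superfamily that bind type I and type II serine/threonine kinase receptors. The receptors phosphorylate SMAD1, SMAD5 and SMAD9, which enter the nucleus with SMAD4 and switch on targets such as the Id genes. Noggin, gremlin 1, chordin and chordin-like 1 bind the ligands outside the cell and keep them from their receptors, and follistatin binds activins as well as some BMPs. Tolloid proteases, of which Bmp1 encodes one, cut chordin and free its ligand. In a fracture callus, BMP ligands made by periosteal cells, chondrocytes and osteoblasts drive mesenchymal progenitors into cartilage and bone, and several of the antagonists are themselves induced by BMP signalling.

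Libraries of 3- and 6-dpf held between 23476327 and 43111491 counts on genes, and those of 10- and 14-dpf between 18334389 and 25185562. Library names also change between 6- and 10-dpf, so levels on both sides of that step were set side by side and not tested. Apex1 itself was lower in every Apex1 KO mouse than in every WT mouse at 6-, 10- and 14-dpf. At 3-dpf the WT mice held 26.5 to 33.1 CPM of Apex1 (the count of a gene scaled to a common library size), and the 4 libraries labelled Apex1 KO 18.4, 29.1, 27.6 and 34.6. Thus 1 of these was below the WT range, 2 lay within it and 1 was above it, so the 3-dpf groups are named here by their labels. At 14-dpf the 3 Apex1 KO mice were all female and 1 of the 4 WT mice was. A fit that includes sex therefore takes its 14-dpf genotype effect from that WT female (WT mouse 1), and the value of the fit without sex is given beside each 14-dpf result on the 10 genes. Levels below are CPM after TMM scaling, listed in the order of the replicate numbers. Changes are log2 fold changes of Apex1 KO relative to WT ± SE from edgeR (quasi-likelihood F test, sex as covariate), with p adjusted by Benjamini-Hochberg over all genes tested and a threshold of 0.05. By this test Apex1 was called lower at 6-dpf (−0.67 ± 0.11, adjusted p = 0.00710) and 10-dpf (−0.65 ± 0.13, adjusted p = 0.0278). It missed the threshold at 3-dpf (−0.15 ± 0.19, adjusted p = 0.927) and 14-dpf (−0.29 ± 0.19, adjusted p = 0.367). The nearest mice at 10-dpf held 16.8 CPM of Apex1 (Apex1 KO) and 16.95 (WT).

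Set side by side per kilobase of exon, Bmp5 had the highest mean level of the 5 ligands in all 8 groups, and Chrdl1 that of the 5 antagonists in all but the 6-dpf Apex1 KO mice, where Fst stood at 8.89 and Chrdl1 at 8.49 CPM per kb. In WT mice at 3-dpf the mean levels were 11.0 ± 1.74 CPM per kb for Bmp5 (SD, n = 4), 7.33 ± 0.398 for Chrdl1 and 5.37 ± 0.878 for Fst. Nog, Grem1 and Bmp6 followed between 2.23 and 2.42 CPM per kb and lay within each other's SD. Bmp2 stood at 1.70 ± 0.182, Bmp4 at 0.938 ± 0.157, Chrd at 0.681 ± 0.150 and Bmp7 last at 0.261 ± 0.0453 CPM per kb. By 14-dpf the order among WT mice had Bmp5 first at 10.3 ± 1.32 CPM per kb, followed by Chrdl1, Grem1 and Bmp2 between 5.88 and 6.77, which were within 1 SD of their neighbours. In Apex1 KO mice at 14-dpf Chrdl1 was first at 16.3 ± 1.98 CPM per kb (SD, n = 3), ahead of Bmp5 at 9.07 ± 1.21 and Fst at 7.35 ± 1.85, while Nog, Bmp6, Bmp2 and Grem1 lay between 3.38 and 4.05.

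**Figure D1:**
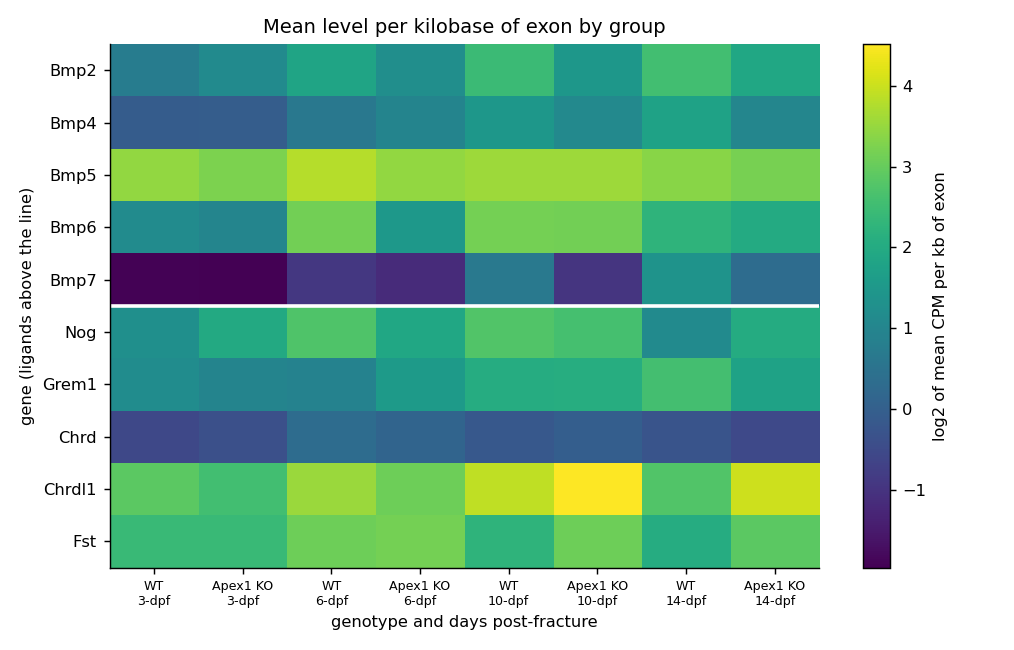
Mean level of each ligand (above the white line) and antagonist (below it) in the 8 groups, as log2 of the mean CPM per kb of exon. Bmp5 and Chrdl1 are bright in all 8 groups, Bmp7 is darkest at 3-dpf, and the brightest cell is Chrdl1 in Apex1 KO mice at 10-dpf, 22.9 CPM per kb.

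Bmp2 (ENSMUSG00000027358, chr2:133394079-133404816, plus strand, mm39) encodes the ligand that limb mesenchyme needs to start fracture repair. Its transcript was lower in the callus of Apex1 KO mice at 6- and 10-dpf, and at 14-dpf when sex was left out of the model. At 3-dpf the 4 WT mice held 7.62, 7.24, 7.49 and 9.11 CPM and the 4 libraries labelled Apex1 KO 10.1, 9.64, 11.4 and 9.44. All 4 of the latter were above all WT mice, but the difference of 0.37 ± 0.13 was far from the threshold (adjusted p = 0.768). At this time point no gene was called (0% of 19866 genes tested), the smallest adjusted p was 0.533, 6.12% of genes had an unadjusted p below 0.05, and 3.66% had libraries of the 2 labels without overlap, as Bmp2 did alone among the 10 genes. At 6-dpf the 5 WT mice held 16.1, 14.1, 15.6, 17.2 and 18.3 CPM and the 3 Apex1 KO mice 10.3, 11.5 and 11.2. Every Apex1 KO mouse was below every WT mouse, and Bmp2 fell by 0.53 on the log2 scale (SE 0.12, adjusted p = 0.0209), a level 1.45-fold lower. In bulk tissue, fewer cells that make a transcript and less of it per cell cannot be told apart.

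At 10-dpf the groups were also apart. The 4 WT mice held 27.2, 28.4, 25.7 and 20.9 CPM of Bmp2 and the 3 Apex1 KO mice 12.9, 13.7 and 11.9, again without overlap. Bmp2 fell by 0.95 on the log2 scale (SE 0.12, adjusted p = 0.00854), a level 1.93-fold lower. At 14-dpf WT mice held 22.8, 28.7, 29.7 and 27.8 CPM and Apex1 KO mice 19.9, 14.8 and 16.8, still without overlap. The WT female had the lowest WT level, and with sex in the model the difference of −0.38 ± 0.16 missed the threshold (adjusted p = 0.176). Without sex it was −0.63 (adjusted p = 0.00608), and with the WT males alone −0.70 (adjusted p = 0.00462). From 3- to 6-dpf Bmp2 rose in WT mice by 1.01 ± 0.11 on the log2 scale (adjusted p = 5.7e-06), and the genotype difference moved by −0.89 ± 0.16 (adjusted p = 0.0120). That move of the difference missed the threshold with the replicate number as a block in place of sex (−0.83, adjusted p = 0.0621). The call at 6-dpf was lost when library size alone scaled the counts (−0.34, adjusted p = 0.0675), without WT mouse 4 (adjusted p = 0.0777) and without Apex1 KO mouse 1 (adjusted p = 0.144). The call at 10-dpf was lost without Apex1 KO mouse 1 (−0.87, adjusted p = 0.0655).

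Bmp4 (ENSMUSG00000021835, chr14:46620250-46636745, minus strand), a close relative of Bmp2 made by osteoprogenitors, was lower in Apex1 KO mice at 14-dpf. The RefSeq start of Bmp4 lies inside the annotated span of the gene, downstream of the first exons of longer transcripts. Grem1 (ENSMUSG00000074934, chr2:113576509-113589000, minus strand), which encodes the antagonist gremlin 1, was also lower at 14-dpf, and the bases upstream of the RefSeq start of each that lie outside annotated exons are shown because these are the called members for which a start region outside exons was at hand. They were read from the RefSeq promoter table, placed on GRCm39 by exact match, and are given 5′ to 3′ on the strand of the gene. Capitals mark matches to the searched motifs, and bases are counted from 1 at the 5′ end.
Bmp4 (chr14:46628127-46628376, minus strand): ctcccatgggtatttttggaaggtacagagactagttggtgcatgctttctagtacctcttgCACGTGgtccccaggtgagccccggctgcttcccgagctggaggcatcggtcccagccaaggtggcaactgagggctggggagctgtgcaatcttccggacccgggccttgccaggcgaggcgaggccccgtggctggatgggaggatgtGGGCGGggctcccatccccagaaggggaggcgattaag
Grem1 (chr2:113589001-113589243, minus strand): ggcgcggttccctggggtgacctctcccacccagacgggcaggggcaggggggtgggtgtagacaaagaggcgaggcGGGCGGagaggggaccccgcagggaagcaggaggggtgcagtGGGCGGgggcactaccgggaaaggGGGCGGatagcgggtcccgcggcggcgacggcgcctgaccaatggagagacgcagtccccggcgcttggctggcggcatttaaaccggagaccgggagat
The motifs were searched on both strands. They were the AP-1 site TGANTCA, the cAMP response element TGACGTCA, the hypoxia response core ACGTG, the GC box GGGCGG and the GLI site GACCACCCA. In Bmp4 the hypoxia response core was found on both strands at bases 63 to 68, where the overlapping matches form a palindrome, and 1 GC box was found at bases 213 to 218. In Grem1 3 GC boxes were found, at bases 78 to 83, 120 to 125 and 144 to 149. Over the 250 bases before the start of 32851 RefSeq promoters, 16.6% held the hypoxia response core and 32.7% a GC box, while 6.75% held the AP-1 site, 1.55% the cAMP response element and 0.225% the GLI site. A match of letters says nothing of binding, and the table held 5 of the 10 members.

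Until 10-dpf the genotypes overlapped in their level of Bmp4. At 3-dpf WT mice held 4.94, 5.89, 3.88 and 4.97 CPM and the libraries labelled Apex1 KO 4.54, 4.93, 5.95 and 4.67. At 6-dpf WT mice held 8.91, 6.12, 9.29, 9.08 and 6.82 CPM and Apex1 KO mice 10.7, 11.2 and 8.84. The ranges overlapped at both times, and the 6-dpf difference of 0.41 ± 0.18 missed the threshold (adjusted p = 0.175), although it passed with library size alone as the scaling (0.59, adjusted p = 0.0461). Bmp4 rose from 3- to 6-dpf in both genotypes, by 0.66 ± 0.16 on the log2 scale in WT mice (adjusted p = 0.00466) and by 1.03 ± 0.17 in Apex1 KO mice (adjusted p = 0.00146). At 10-dpf WT mice held 16.2, 16.4, 12.7 and 11.98 CPM and Apex1 KO mice 12.8, 10.9 and 9.42, with an overlap and a difference of −0.30 ± 0.11 that missed the threshold (adjusted p = 0.135).

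WT mice at 14-dpf held 23.3, 17.2, 16.04 and 15.1 CPM of Bmp4 and Apex1 KO mice 9.61, 13.6 and 8.47. The groups did not overlap, and the WT female was the highest of all. Bmp4 fell by 1.11 on the log2 scale (SE 0.24, adjusted p = 0.0257), 2.16-fold. Without sex the difference was −0.72 (adjusted p = 0.0269), and with the WT males alone −0.56 (adjusted p = 0.0513). The call was also lost with library size alone (−0.84, adjusted p = 0.0721) and without WT mouse 2, 3 or 4 (adjusted p = 0.0644, 0.0617 and 0.0586). The change of the genotype difference from 10- to 14-dpf, −0.75 ± 0.22, missed the threshold (adjusted p = 0.173) and passed it only without the 14-dpf Apex1 KO mouse 2 (−0.96, adjusted p = 0.0193).

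Bmp5 (ENSMUSG00000032179, chr9:75682638-75807592, plus strand), the ligand of the short ear mutant whose periosteum and fracture repair are affected, had no genotype difference called at any time point. WT mice held 34.9 to 50.9 CPM at 3-dpf and the libraries labelled Apex1 KO 30.8 to 44.9. WT mice at 6-dpf held 50.8, 57.1, 46.6, 71.7 and 54.8 CPM and Apex1 KO mice 45.1, 46.0 and 41.6. The highest Apex1 KO mouse was just below the lowest WT mouse, and the difference of −0.36 ± 0.11 missed the threshold with edgeR (adjusted p = 0.0688) while passing it with DESeq2 (−0.37, adjusted p = 0.0471) and without a filter on low counts (adjusted p = 0.0422). At 10-dpf the WT range of 41.8 to 50.2 CPM enclosed the Apex1 KO range of 46.2 to 48.6. At 14-dpf WT mice held 36.6 to 49.0 CPM and Apex1 KO mice 31.4 to 41.1, which overlapped (−0.39 ± 0.16, adjusted p = 0.153; without sex −0.14, adjusted p = 0.423). The rise from 3- to 6-dpf in WT mice, 0.31 ± 0.13, also missed the threshold (adjusted p = 0.0776), and passed it with DESeq2 (0.34, adjusted p = 0.0477), with all samples in one model (0.34, adjusted p = 0.0355), without the 3-dpf Apex1 KO libraries 1 (adjusted p = 0.0402) or 3 (adjusted p = 0.0292) and without the 6-dpf WT mouse 3 (0.41, adjusted p = 0.0383).

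Bmp6 (ENSMUSG00000039004, chr13:38529065-38684280, plus strand), a ligand of maturing chondrocytes that also sets hepatic iron signalling, had the largest fall of the 10 genes at 6-dpf. WT mice at 3-dpf held 6.19, 10.1, 10.1 and 8.67 CPM and the libraries labelled Apex1 KO 5.78, 7.77, 10.1 and 7.42, with ranges that overlapped almost fully. At 6-dpf WT mice held 25.2, 37.8, 32.7, 31.6 and 44.6 CPM and Apex1 KO mice 14.8, 11.3 and 6.98. All 3 Apex1 KO mice were well below the WT mice. Bmp6 fell by 1.58 on the log2 scale (SE 0.25, adjusted p = 0.00578), 2.98-fold, and this held without each mouse in turn, with changes from −1.90 to −1.37. In WT mice Bmp6 rose by 1.93 ± 0.20 from 3- to 6-dpf (adjusted p = 4.9e-06), while the change of 0.47 ± 0.22 in Apex1 KO mice missed the threshold (adjusted p = 0.173). The difference between these changes was itself called at −1.46 ± 0.29 (adjusted p = 0.0243). That call was lost without a sex term (−1.43, adjusted p = 0.0520), without the 3-dpf WT mice 2 or 3, the 3-dpf Apex1 KO library 3, the 6-dpf WT mice 4 or 5 or the 6-dpf Apex1 KO mouse 3, with adjusted p between 0.0509 and 0.0691.

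At 10-dpf Bmp6 overlapped between the genotypes. WT mice held 33.6, 33.3, 43.3 and 30.9 CPM and Apex1 KO mice 34.6, 38.3 and 29.8, with no Apex1 KO mouse above the highest WT mouse. WT mice at 14-dpf held 22.1, 15.2, 19.2 and 18.1 CPM and Apex1 KO mice 16.5, 16.5 and 14.0, which overlapped (−0.48 ± 0.17, adjusted p = 0.124; without sex −0.21, adjusted p = 0.248). Between 10- and 14-dpf Bmp6 fell in both genotypes, by 0.92 on the log2 scale in WT mice (SE 0.13, adjusted p = 0.00111) and by 1.16 in Apex1 KO mice (SE 0.17, adjusted p = 0.0329). It was the only one of the 10 genes called in Apex1 KO mice over this interval, where 0.259% of 19705 genes were, 0.228% lower. That call was lost without the 10-dpf WT mouse 1, the 10-dpf Apex1 KO mice 2 or 3 or the 14-dpf WT mice 2, 3 or 4, with adjusted p between 0.0553 and 0.103.

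Bmp7 (ENSMUSG00000008999, chr2:172709805-172782410, minus strand), a ligand that has been used clinically for nonunion under the name OP-1, had the lowest counts of the set, 22 to 74 a library in the 3-dpf libraries labelled Apex1 KO. At 3-dpf WT mice held 0.865, 1.29, 1.17 and 1.29 CPM and the libraries labelled Apex1 KO 0.694, 0.811, 2.10 and 0.919. WT mice at 6-dpf held 4.47, 1.497, 2.32, 2.04 and 1.45 CPM and Apex1 KO mice 2.80, 1.66 and 1.41. The genotypes overlapped at both times and 1 mouse stood above its group at each. The rise in WT mice from 3- to 6-dpf, 0.88 ± 0.31 (adjusted p = 0.0423), was lost without sex (adjusted p = 0.0580), with library size alone (adjusted p = 0.105), and without the 3-dpf WT mice 1, 2 or 3, the 6-dpf WT mice 1 or 4 or the 6-dpf Apex1 KO mouse 1 (adjusted p between 0.0531 and 0.137).

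At 14-dpf Bmp7 was lower in Apex1 KO mice. WT mice at 10-dpf held 9.39, 9.23, 2.80 and 6.23 CPM and Apex1 KO mice 2.53, 1.35 and 2.91. The WT male with 2.80 CPM sat among the Apex1 KO mice, and the difference of −1.39 ± 0.37 missed the threshold (adjusted p = 0.0672). It passed without that mouse, WT mouse 3 (−1.70, adjusted p = 0.0142), without Apex1 KO mouse 3 (−1.80, adjusted p = 0.0399), with DESeq2 (adjusted p = 0.00148) and with all samples in one model (adjusted p = 0.00974). At 14-dpf WT mice held 15.9, 12.5, 7.67 and 9.05 CPM and Apex1 KO mice 5.60, 6.54 and 4.61, without overlap. Bmp7 fell by 1.48 on the log2 scale (SE 0.28, adjusted p = 0.0163), 2.79-fold, and without sex by 0.97 (adjusted p = 0.0205). The rise in WT mice from 10- to 14-dpf, 0.93 ± 0.28, was only just called (adjusted p = 0.0473). It was lost without sex (0.69, adjusted p = 0.240), with library size alone (adjusted p = 0.0797), with no filter (adjusted p = 0.0754) and without the 10-dpf WT mice 1, 2 or 3, the 10-dpf Apex1 KO mouse 2, any 14-dpf WT mouse or the 14-dpf Apex1 KO mice 1 or 3 (adjusted p between 0.0502 and 0.144).

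**Figure D2:**
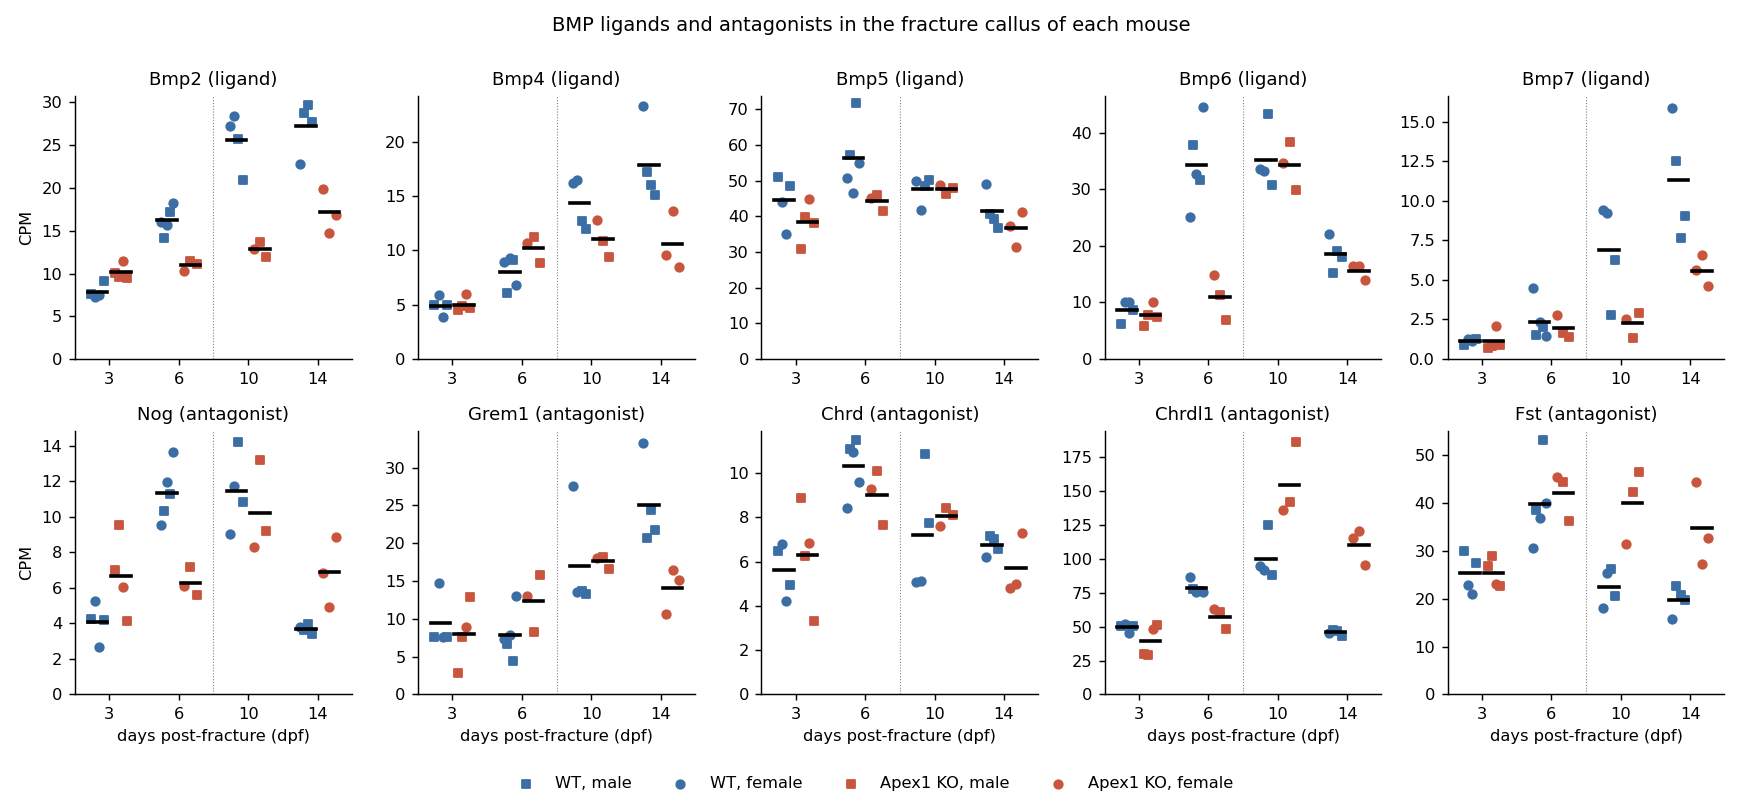
CPM of each gene in each mouse against days post-fracture, with WT in blue, Apex1 KO in red, males as squares, females as circles and group means as bars; the dotted line marks the step in library names that no test crosses. Bmp2 is higher in all libraries labelled Apex1 KO than in WT at 3-dpf and lower in all Apex1 KO mice from 6-dpf on, Bmp6 splits at 6-dpf alone, and Chrdl1 is below WT at 6-dpf and above it at 10- and 14-dpf.

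Nog (ENSMUSG00000048616, chr11:89191464-89193158, minus strand) encodes noggin, the antagonist that condensing cartilage makes in response to BMP. It was lower in Apex1 KO mice at 6-dpf. WT mice at 3-dpf held 4.25, 5.27, 2.67 and 4.20 CPM and the libraries labelled Apex1 KO 7.01, 9.55, 6.03 and 4.14. The group ranges overlapped through 1 library, with no call. At 6-dpf WT mice held 9.57, 10.3, 11.9, 11.3 and 13.6 CPM and Apex1 KO mice 6.08, 7.17 and 5.62. The groups were apart, and Nog fell by 0.81 on the log2 scale (SE 0.16, adjusted p = 0.0131), 1.75-fold. This call was lost without Apex1 KO mouse 1 (−0.73, adjusted p = 0.0868).

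WT mice gained Nog between 3- and 6-dpf, by 1.44 ± 0.22 on the log2 scale (adjusted p = 1.9e-04). The change of the genotype difference over this interval was −1.51 ± 0.33 (adjusted p = 0.0358). It was lost without any of the 3-dpf WT mice 1, 3 or 4, the 3-dpf Apex1 KO libraries 2 or 3, the 6-dpf WT mice 3, 4 or 5 or the 6-dpf Apex1 KO mice 1 or 3, with adjusted p between 0.0550 and 0.114. At 10-dpf WT mice held 9.01, 11.7, 14.2 and 10.8 CPM and Apex1 KO mice 8.29, 13.2 and 9.18, which overlapped. WT mice at 14-dpf held 3.80, 3.62, 3.96 and 3.41 CPM and Apex1 KO mice 6.86, 4.91 and 8.85. All 3 Apex1 KO mice were above all WT mice. With sex in the model the difference of 0.88 ± 0.35 missed the threshold (adjusted p = 0.146), without sex it was 0.93 (adjusted p = 0.00794), with the WT males alone 0.95 (adjusted p = 0.0177), with all samples in one model 0.98 (adjusted p = 0.00597) and without Apex1 KO mouse 2 it was 1.07 (adjusted p = 0.0284). In WT mice Nog fell by 1.69 on the log2 scale from 10- to 14-dpf (SE 0.20, adjusted p = 3.7e-04), to a level 3.23-fold lower. The change of its genotype difference, 1.28 ± 0.33, missed the threshold (adjusted p = 0.132), and passed it with DESeq2 (adjusted p = 0.0180), with no filter (adjusted p = 0.0442) and without the 14-dpf Apex1 KO mouse 2 (adjusted p = 0.0386).

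Grem1 differed widely between mice of a group. At 3-dpf WT mice held 7.62, 14.8, 7.60 and 7.64 CPM and the libraries labelled Apex1 KO 2.78, 7.61, 8.92 and 12.9. WT mice at 6-dpf held 7.35, 6.70, 7.81, 4.41 and 13.001 CPM and Apex1 KO mice 12.99, 8.22 and 15.8. The ranges overlapped, and the 6-dpf difference of 0.86 ± 0.29 missed the threshold (adjusted p = 0.0910). It passed with DESeq2 (adjusted p = 0.0237), with library size alone (1.07, adjusted p = 0.0445) and without WT mouse 5 (1.02, adjusted p = 0.0423). WT mice at 10-dpf held 27.6, 13.6, 13.7 and 13.3 CPM and Apex1 KO mice 18.1, 18.2 and 16.6, so the Apex1 KO mice lay between 1 high WT female and the other WT mice.

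At 14-dpf Grem1 was lower in Apex1 KO mice. WT mice held 33.3, 20.7, 24.4 and 21.7 CPM of Grem1 and Apex1 KO mice 10.6, 16.5 and 15.1. The groups did not overlap and Grem1 fell by 1.22 on the log2 scale (SE 0.23, adjusted p = 0.0160), 2.33-fold. Without sex it fell by 0.79 (adjusted p = 0.0215), and with the WT males alone by 0.62 (adjusted p = 0.0311). With the replicate number as a block in place of sex it fell by 0.86 and the call was lost (adjusted p = 0.103). The change of the genotype difference from 10- to 14-dpf, −1.30 ± 0.35, missed the threshold with edgeR (adjusted p = 0.141) and passed with DESeq2 (−1.28, adjusted p = 0.0223). The rise in WT mice over this interval, 0.66 ± 0.20, missed the threshold narrowly (adjusted p = 0.0529) and passed it with DESeq2 (adjusted p = 0.0179) and without the 10-dpf WT mouse 1 (0.87, adjusted p = 0.00562), the 10-dpf Apex1 KO mouse 1 (adjusted p = 0.0422) or the 14-dpf Apex1 KO mouse 1 (adjusted p = 0.0410).

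Chrd (ENSMUSG00000006958, chr16:20550622-20561857, plus strand) encodes chordin, the substrate of the tolloid proteases. No genotype difference was called at any time point. WT mice at 3-dpf held 4.21 to 6.80 CPM and the libraries labelled Apex1 KO 3.32 to 8.87, and at 6-dpf WT mice held 8.44 to 11.5 and Apex1 KO mice 7.64 to 10.1. At 10-dpf WT mice held 5.07, 5.12, 10.9 and 7.76 CPM, where both females were below both males, and Apex1 KO mice 7.63, 8.41 and 8.11. At 14-dpf the WT range was 6.23 to 7.15 CPM and the Apex1 KO range 4.80 to 7.28 (−0.10 ± 0.28, adjusted p = 0.844; without sex −0.20, adjusted p = 0.395). Chrd rose from 3- to 6-dpf in WT mice by 0.85 ± 0.23 on the log2 scale (adjusted p = 0.00975).

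Chrdl1 (ENSMUSG00000031283, chrX:142068670-142177258, minus strand) encodes chordin-like 1, a secreted BMP binder with chordin-type repeats. It was lower than WT in the Apex1 KO callus at 6-dpf and higher at 10- and 14-dpf. At 3-dpf WT mice held 50.5, 51.9, 45.7 and 50.4 CPM and the libraries labelled Apex1 KO 29.9, 28.8, 48.4 and 51.5, so 2 of these libraries were at the WT level and 2 below it. At 6-dpf WT mice held 86.6, 78.0, 75.8, 76.1 and 75.4 CPM and Apex1 KO mice 63.3, 60.9 and 48.0. The groups did not overlap and Chrdl1 fell by 0.40 on the log2 scale (SE 0.10, adjusted p = 0.0398), 1.32-fold. The call was lost with library size alone (−0.22, adjusted p = 0.163), with all samples in one model (−0.45, adjusted p = 0.0599), and without WT mouse 1, 2, 3 or 4 or Apex1 KO mouse 1 or 3 (adjusted p between 0.0574 and 0.118).

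WT mice at 10-dpf held 95.0, 92.2, 125 and 88.2 CPM of Chrdl1 and Apex1 KO mice 136, 142 and 186. The groups were apart in the opposite order, and Chrdl1 rose by 0.60 ± 0.14 on the log2 scale (adjusted p = 0.0419), 1.52-fold. The call was lost without sex (0.64, adjusted p = 0.0519), without WT mouse 1 or 2 (adjusted p = 0.115 and 0.114) and without Apex1 KO mouse 1 or 3 (adjusted p = 0.230 and 0.103). At 14-dpf WT mice held 45.5, 47.3, 47.0 and 43.4 CPM and Apex1 KO mice 115, 121 and 95.4. The lowest Apex1 KO mouse was far above the highest WT mouse. Chrdl1 rose by 1.30 ± 0.16 on the log2 scale (adjusted p = 0.00285), 2.47-fold, and without sex by 1.31 (adjusted p = 5.0e-05). The alternatives gave 1.26 to 1.58 and leaving out 6 of the mice in turn 1.23 to 1.40, all past the threshold. The fit with sex could not be run without WT mouse 1, from which it takes its genotype effect. Leaving out the other mice therefore does not test the weight of that mouse.

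Chrdl1 also changed with time. From 10- to 14-dpf it fell in WT mice by 1.18 on the log2 scale (SE 0.12, adjusted p = 1.9e-04), and the change of −0.38 ± 0.15 in Apex1 KO mice missed the threshold (adjusted p = 0.275). The difference between these changes, 0.80 ± 0.20, missed it as well (adjusted p = 0.122), and passed with DESeq2 (adjusted p = 0.0186) and with no filter (adjusted p = 0.0442). From 3- to 6-dpf Chrdl1 rose in WT mice by 0.61 ± 0.15 (adjusted p = 0.00565), a call lost with library size alone (0.38, adjusted p = 0.0619). It rose in Apex1 KO mice by 0.53 ± 0.17 (adjusted p = 0.0453). That last call was lost with library size alone (adjusted p = 0.0650), with no filter (adjusted p = 0.0902) and without each mouse except the 3-dpf Apex1 KO libraries 3 and 4 and the 6-dpf Apex1 KO mouse 3 (adjusted p between 0.0525 and 0.187).

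Fst (ENSMUSG00000021765, chr13:114588731-114595521, minus strand) encodes follistatin, the activin antagonist that also binds BMPs. It was higher in Apex1 KO mice at 10- and 14-dpf. WT mice at 3-dpf held 29.99, 22.9, 21.0 and 27.5 CPM and the libraries labelled Apex1 KO 26.8, 28.9, 23.0 and 22.6. WT mice at 6-dpf held 30.5, 38.5, 36.9, 53.0 and 40.0 CPM and Apex1 KO mice 45.4, 44.3 and 36.2. The groups overlapped at both times, and Fst rose from 3- to 6-dpf in both, by 0.64 ± 0.12 on the log2 scale in WT mice (adjusted p = 0.00111) and by 0.76 ± 0.14 in Apex1 KO mice (adjusted p = 0.00237).

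At 10-dpf WT mice held 18.1, 25.4, 26.1 and 20.5 CPM of Fst and Apex1 KO mice 31.3, 42.2 and 46.3. The groups were apart and Fst rose by 0.78 ± 0.15 on the log2 scale (adjusted p = 0.0273), 1.72-fold. The call was lost without WT mouse 1 (adjusted p = 0.0839), Apex1 KO mouse 1 (adjusted p = 0.0977) or Apex1 KO mouse 3 (adjusted p = 0.0679). WT mice at 14-dpf held 15.7, 22.6, 20.7 and 19.6 CPM and Apex1 KO mice 44.3, 27.1 and 32.7, again without overlap. Fst rose by 1.17 ± 0.25 on the log2 scale (adjusted p = 0.0255), 2.24-fold, without sex by 0.86 (adjusted p = 0.00578) and with the WT males alone by 0.77 (adjusted p = 0.0130). The 14-dpf call was lost without WT mouse 2, 3 or 4 (adjusted p = 0.0595, 0.0648 and 0.0607).

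**Figure D3:**
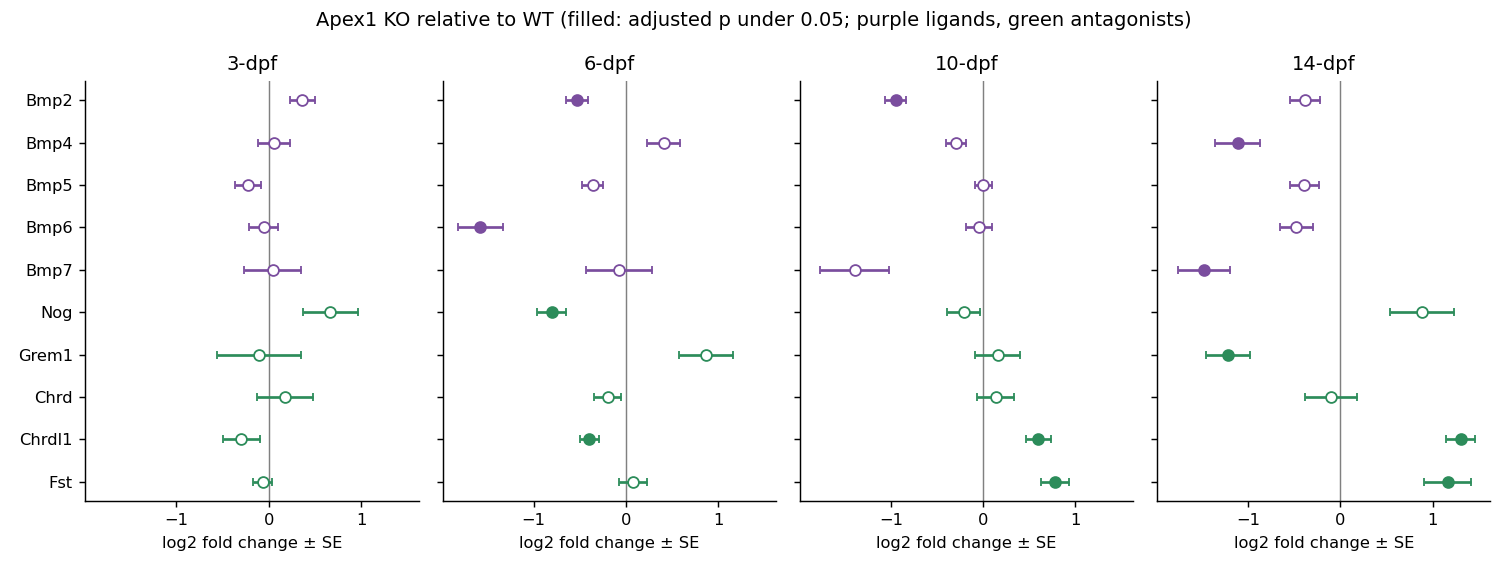
Log2 fold change of Apex1 KO relative to WT ± SE for each gene at each time point, from edgeR with sex in the model; filled points passed an adjusted p of 0.05, ligands are purple and antagonists green. At 6-dpf all 4 filled points are left of 0, and at 14-dpf 3 are left of 0 and 2, Chrdl1 and Fst, are right of it.

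Counted over the 10 genes, the calls at 6-dpf were 4 lower (Bmp2, Bmp6, Nog and Chrdl1) and 0 higher, where 10.9% of 20260 genes were called, 5.61% lower. For 5 of the 10 the genotypes were apart, against 20.6% of all genes. At 10-dpf 1 ligand (Bmp2) was lower and 2 antagonists (Chrdl1 and Fst) were higher, where 6.46% of 18910 genes were called, 3.44% lower and 3.01% higher, and 3 of the 10 were without overlap, against 19.3%. At 14-dpf 3 were lower (Bmp4, Bmp7 and Grem1) and 2 higher (Chrdl1 and Fst), where 11.3% of 20228 genes were called, 7.04% lower and 4.28% higher. At that time 7 of the 10 were without overlap, against 42% of all genes. Without sex at 14-dpf 7 of the 10 were called, Bmp2 lower and Nog higher in addition, where 37.2% of 18410 genes were. The median log2 fold change of the 10 genes was −0.01, −0.28, −0.02 and −0.39 at 3-, 6-, 10- and 14-dpf, and that of all genes tested was −0.00282, 0.0125, −0.00309 and 0.043.

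Over the early interval most of the 10 genes rose in WT mice. From 3- to 6-dpf 8 of them rose in WT mice, all but Bmp5 and Grem1, where 30.5% of 20468 genes were called and 15.4% rose. In Apex1 KO mice 3 rose, Bmp4, Chrdl1 and Fst, where 14% of genes were called and 7.1% rose. The change itself differed between genotypes for Bmp2, Bmp6 and Nog, all towards a lower level in Apex1 KO mice, where 1.3% of genes were called, 0.987% in that direction. Without the library labelled Apex1 KO that held 34.6 CPM of Apex1 (library 4), 0 of the 10 genes were called at 3-dpf, the 8 and 3 genes that rose in WT and Apex1 KO mice were again these 8 and 3, and the change of the difference was −0.92 for Bmp2 (adjusted p = 0.0143), −1.45 for Bmp6 (adjusted p = 0.0380) and −1.69 for Nog (adjusted p = 0.00996). From 10- to 14-dpf, Bmp6, Nog and Chrdl1 fell and Bmp7 rose in WT mice, where 11.1% of 19705 genes were called, 4.92% lower and 6.19% higher. The change of the genotype difference over this interval was called for 0 of the 10 genes by edgeR, with 4 at an unadjusted p below 0.05. Of all genes 0.436% were called by edgeR and 13.1% had an unadjusted p below 0.05. DESeq2 called 3 of the 10 genes, where it called 465 genes in all against 86 by edgeR.

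Summed per kilobase of exon, the 5 ligands and the 5 antagonists gave about equal totals in WT mice until 10-dpf. The ratio of summed ligands to summed antagonists was 0.898 ± 0.0569, 0.946 ± 0.0541 and 0.986 ± 0.0893 in WT mice at 3-, 6- and 10-dpf and 1.34 ± 0.0817 at 14-dpf (SD, n = 4, 5, 4 and 4). In Apex1 KO mice it was 0.831 ± 0.0863, 0.737 ± 0.0124, 0.617 ± 0.105 and 0.630 ± 0.0185 (SD, n = 4, 3, 3 and 3). At 3-dpf the ranges overlapped, and from 6-dpf on every Apex1 KO mouse had a lower ratio than every WT mouse. At 14-dpf the ligand sum was 24.6 to 30.7 CPM per kb in WT mice and 19.3 to 20.8 in Apex1 KO mice, and the antagonist sum 18.6 to 21.1 and 30.8 to 33.6. At 10-dpf the ligand sums were apart, 28.5 to 32.0 in WT and 24.5 to 26.7 in Apex1 KO mice. The 10-dpf antagonist sums, 27.9 to 37.1 in WT and 36.9 to 47.8 in Apex1 KO mice, just overlapped. At 6-dpf both sums were lower in every Apex1 KO mouse than in every WT mouse. The 6-dpf ligand sums were 25.2 to 31.7 in WT and 16.5 to 19.8 in Apex1 KO mice, and the antagonist sums 27.7 to 32.0 and 22.8 to 26.8. These sums weigh each gene by its level and describe message, not protein, and no test was run on them.

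**Figure D4:**
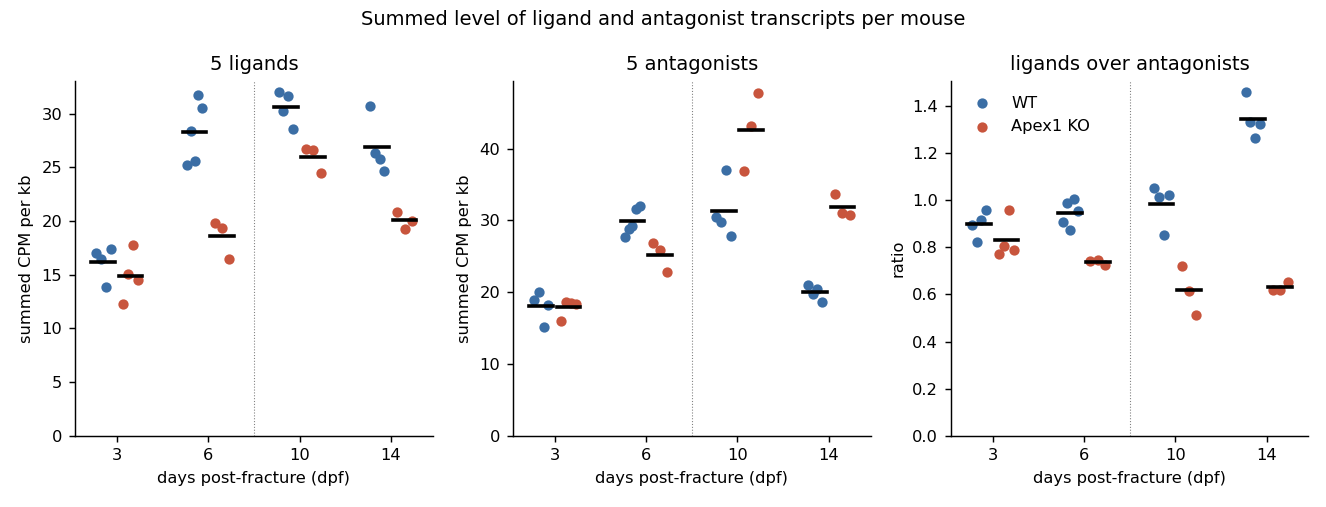
CPM per kb summed over the 5 ligands (left) and the 5 antagonists (middle) and their ratio (right) in each mouse against days post-fracture, with WT in blue, Apex1 KO in red and group means as bars. At 14-dpf the WT ratios lie between 1.26 and 1.46 and the Apex1 KO ratios between 0.619 and 0.652.

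Genes that mark the cells of the callus also differed between genotypes. At 3-dpf no marker was called, but the skeletal muscle sums of the 2 labels were apart. They were 6095 to 14402 CPM in the libraries labelled Apex1 KO and 4237 to 6006 in WT mice. The sums of the other marker lists overlapped at that time. At 6-dpf, where Bmp2, Bmp6, Nog and Chrdl1 were lower, all 12 chondrocyte markers were lower in Apex1 KO mice, with sums of 3090 to 5763 CPM against 34990 to 62793 in WT mice, and 8 of 10 osteoblast markers were lower. At the same time 10 of 12 skeletal muscle markers were higher, with sums of 9041 to 20773 CPM against 3802 to 7003. Higher were also 7 of 10 macrophage markers (sums 1248 to 1440 CPM against 727 to 929), 5 of 12 lymphocyte and 4 of 7 adipocyte markers, while 5 of 6 hypertrophic chondrocyte markers were lower (965 to 2014 CPM against 5646 to 8069). At 10-dpf, where Bmp2 was lower and Chrdl1 and Fst higher, 0 of 12 chondrocyte markers were called (sums 14536 to 24803 CPM against 19232 to 50031), 7 of 10 osteoblast and 5 of 8 osteoclast markers were lower, and the muscle sums were 3979 to 8850 CPM against 1441 to 4435, with no marker called. Of the 6 hypertrophic chondrocyte markers 2 were lower and 0 higher at 10-dpf, with sums apart (11323 to 16524 CPM against 18626 to 22065). Of 4 osteocyte markers tested 2 were lower and 0 higher, and the osteocyte sums were apart (224 to 330 CPM against 398 to 999). At this time 5 of 7 adipocyte markers were higher (sums 130 to 222 CPM against 69.5 to 89.8). Of the 10 macrophage markers 5 were higher and 1 lower, and their sums overlapped (850 to 965 CPM against 740 to 886). At 14-dpf the osteoblast sum was 29628 to 30854 CPM in Apex1 KO mice against 120474 to 167938 in WT mice, and all 8 osteoclast markers were lower. The 14-dpf chondrocyte sums overlapped, 5672 to 6887 CPM against 3133 to 8326, and 11 of 12 markers were called higher with sex in the model, where the WT female held the lowest sum, but 1 without it. Muscle sums at 14-dpf were 3935 to 14145 CPM against 1565 to 5718, with 0 markers called with sex and 6 higher without it. Higher at 14-dpf were also 7 of 9 neutrophil and 5 of 8 erythroid markers, and without sex all 9 and 7 of 7, as were all 12 lymphocyte markers. Of the 10 macrophage markers 6 were higher and 2 lower at 14-dpf, and without sex 7 were higher and 3 lower. The macrophage sums were not higher at that time, with 1043 to 1173 CPM in Apex1 KO mice against 1142 to 1287 in WT mice. The part of these markers in the results on the BMP genes was not tested.

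The other genes of the pathway were taken from 7 lists with 65 genes. At 3-dpf 0 of 59 tested were called. At 6-dpf 11 of 60 were lower and 5 higher, at 10-dpf 10 of 60 were lower and 0 higher, and at 14-dpf 19 of 62 were lower and 3 higher, shares of 26.7%, 16.7% and 35.5% beside the 10.9%, 6.46% and 11.3% of all genes. Without sex at 14-dpf 27 of 61 were lower and 9 higher, where 37.2% of 18410 genes were called. The no-sex counts of single lists below stand beside that same share. At 14-dpf the lists with the highest share of lower calls were the BMP response genes and the SMADs and SMURFs.

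Of the 10 BMP response genes, 5 of 10 tested were lower at 6-dpf, 3 of 9 at 10-dpf and 6 of 10 at 14-dpf, with 0 higher, and their median log2 fold change was −0.50, −0.28 and −1.12 (without sex at 14-dpf −1.42). Hey1, a transcription factor induced by BMP and NOTCH, changed by −1.22 ± 0.20 at 6-dpf (adjusted p = 0.00687), −2.00 ± 0.23 at 10-dpf (adjusted p = 0.00854) and −3.26 ± 0.17 at 14-dpf (adjusted p = 3.5e-04; without sex −3.08). Its mean at 14-dpf was 62.5 ± 8.83 CPM in WT mice and 7.22 ± 0.572 in Apex1 KO mice. Id3, an inhibitor of differentiation and a direct SMAD target, fell by 0.65 at 10-dpf (adjusted p = 0.0368) and by 1.80 at 14-dpf (adjusted p = 8.7e-04; without sex −1.84). Bambi, a decoy receptor, fell by 0.93 at 6-dpf (adjusted p = 0.0118), and Dlx5, an osteoblast transcription factor, by 0.96 at 10-dpf (adjusted p = 0.0302).

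Among the 8 SMADs and SMURFs, 1, 3 and 6 were lower at 6-, 10- and 14-dpf, and all 8 at 14-dpf without sex. Smad6, an inhibitory SMAD induced by BMP, fell by 0.56, 0.95 and 2.06 on the log2 scale at these times (adjusted p = 0.0410, 0.0173 and 8.8e-04; without sex −1.97 at 14-dpf). Smad9, a receptor-activated SMAD, fell by 1.39 at 10-dpf (adjusted p = 0.0245) and by 2.36 at 14-dpf (adjusted p = 0.00123; without sex −2.08). Smad7, the other inhibitory SMAD, fell by 0.62 at 10-dpf (adjusted p = 0.0126). Of the receptors and co-receptors, 0 of 12 were lower and 2 higher at 6-dpf, Bmpr1b (0.56 ± 0.13, adjusted p = 0.0253) and the co-receptor Hjv (1.34 ± 0.31, adjusted p = 0.0266). Hjv is best known from liver and skeletal muscle. The skeletal muscle markers were higher in the same mice, and a link between the 2 was not tested. Of the receptors 0 were called at 10-dpf and 1 at 14-dpf, the endothelial co-receptor Eng (−0.52 ± 0.13, adjusted p = 0.0393; without sex −0.46), while without sex 4 were lower and 2 higher at 14-dpf.

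Of the proteases that process ligands and antagonists, 1 of 6, 2 of 7 and 3 of 7 were lower at 6-, 10- and 14-dpf and 0 higher, and without sex 4 were lower and 2 higher at 14-dpf. Pcsk6, a proprotein convertase, fell by 1.67 at 6-dpf (SE 0.21, adjusted p = 0.00220) and by 0.72 at 10-dpf (adjusted p = 0.0204). Bmp1, the tolloid protease that cuts chordin, fell by 0.62 at 10-dpf (adjusted p = 0.0211) and by 1.59 at 14-dpf (SE 0.15, adjusted p = 0.00111; without sex −1.48). Furin and the protease enhancer Pcolce fell at 14-dpf by 0.69 (adjusted p = 0.0211) and 1.40 (adjusted p = 0.0125), and without sex by 0.74 and 1.34.

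Of the other BMP and GDF ligands 2 of 7 were lower and 1 higher at 6-dpf, 2 of 8 lower and 0 higher at 10-dpf and 1 of 8 each way at 14-dpf. Of the other extracellular regulators 2 of 12 were called each way at 6-dpf, 0 of 11 at 10-dpf and 1 of 12 lower and 2 higher at 14-dpf. Bmp8a fell by 1.52 at 6-dpf (adjusted p = 0.00153) and by 0.80 at 10-dpf (adjusted p = 0.0400), and Bmp3, an inhibitory ligand of osteoblasts, by 0.99 at 10-dpf (adjusted p = 0.0215) and 1.22 at 14-dpf (adjusted p = 0.0303; without sex −1.01). Gdf5, a joint and cartilage ligand, fell by 1.82 at 6-dpf (adjusted p = 0.0114) and rose by 3.79 ± 0.72 at 14-dpf (adjusted p = 0.0158; without sex 1.84), where its WT mean was 1.71 ± 1.08 CPM and its Apex1 KO mean 6.01 ± 2.24. Gdf6 rose at 6-dpf (1.64 ± 0.42, adjusted p = 0.0354) from a WT mean of 0.263 CPM, and Gdf11, of the activin and myostatin list, fell by 1.24 at 14-dpf (adjusted p = 0.0127; without sex −1.24), the 1 of 5 genes of that list called with sex in the model, against 2 of 5 without it. At 6-dpf Chrdl2 and Twsg1 fell by 1.31 and 0.62 (adjusted p = 0.0415 and 0.0319), while the osteocyte product Sost rose (1.36 ± 0.25, adjusted p = 0.0111). At 14-dpf Sost fell by 1.42 (adjusted p = 0.00790; without sex −0.86). Fstl3 (1.52 ± 0.37, adjusted p = 0.0384) and Chrdl2 (7.24 ± 1.60, adjusted p = 0.0265) were higher at 14-dpf with sex in the model alone, and without it stood at 0.48 (adjusted p = 0.284) and 0.37 (adjusted p = 0.740).

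**Figure D5:**
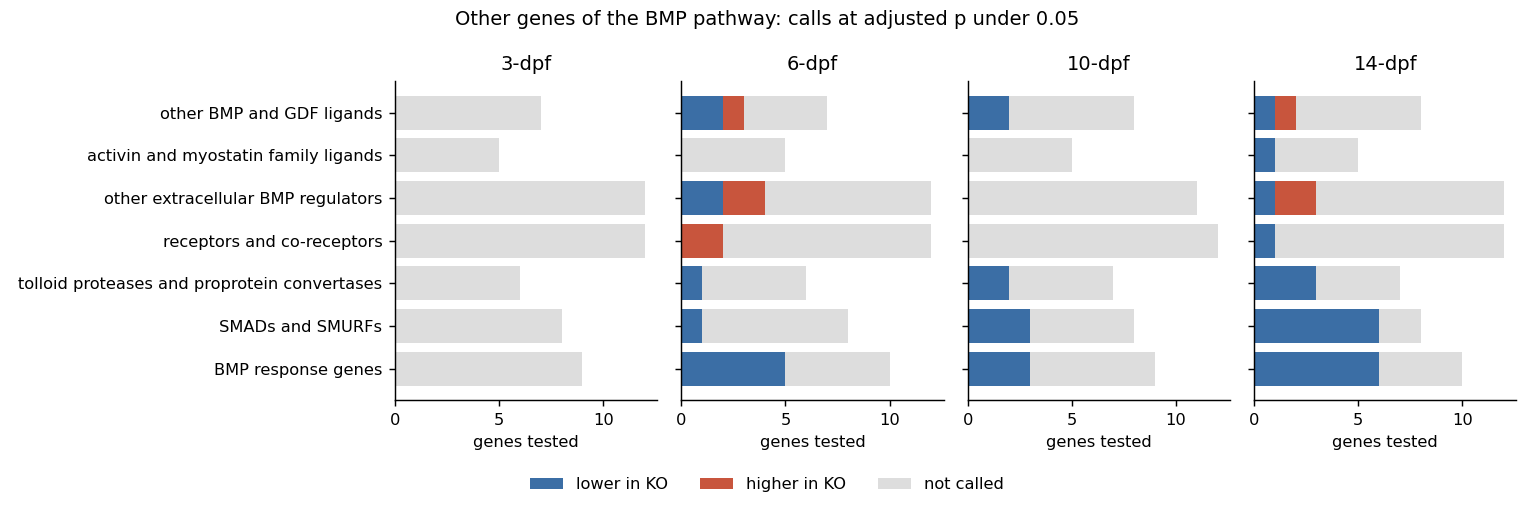
Number of genes tested in each of the 7 lists of other BMP pathway genes at each time point, split into lower in Apex1 KO (blue), higher (red) and not called (grey), from edgeR with sex in the model. The blue share of SMADs and SMURFs goes from 1 of 8 at 6-dpf to 3 of 8 at 10-dpf and 6 of 8 at 14-dpf, and no gene is called at 3-dpf.

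Each of the 10 genes was set beside 13795 protein-coding genes to find the patterns most like it, by the lower of a pair of Pearson r of log2 CPM, 1 over the 16 libraries of 3- and 6-dpf and 1 over the 14 libraries of 10- and 14-dpf. The mice of a set share genotype and time effects, so these r describe likeness and carry no test. Bmp6 was most like Fgfr3 (r = 0.945 for the lower of the pair), a receptor of growth plate chondrocytes, followed by Proser2 and Cdkn1c. Chrdl1 was most like Aff3 (0.92), S100b (0.911) and Cpm (0.9), and Nog was most like Prkg1 (0.917), Sox8 (0.868) and Tbc1d1 (0.867). Bmp7 was most like Lifr (0.914), Fap and Pdzd2, Bmp2 most like Piezo1 (0.89), Srgap1 and Kank1, and Fst most like Atp12a (0.881), Sulf2 and Brinp3. Bmp4 was nearest to Vamp2 (0.858), Shank3 and Oscar, Chrd to Bod1 (0.841), Radil and Cd81, and Bmp5 to Col12a1 (0.795), Zfp799 and Ror2. Grem1 had the least close neighbours, Cxcl12 (0.724), Kng1 and Gdpd2.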

How the data were processed

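Callus RNA of 30 mice, grouped by the genotype, time and sex on their labels, was depleted of ribosomal RNA, sequenced from stranded libraries and aligned by the authors with STAR 2.7.0d to mm39, and featureCounts gave the deposited values, raw whole-number counts per gene. Symbols, positions and exon lengths came from GENCODE M39, which matched 54749 of 55416 IDs.

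Each time point was fitted with edgeR 4.0.16 in R 4.3.3 (filterByExpr, TMM, sex and genotype, robust quasi-likelihood F test, Benjamini-Hochberg over all genes, threshold 0.05). SE is the absolute log2 fold change divided by the root of F. Models of 4 groups and sex gave changes between 3- and 6-dpf and between 10- and 14-dpf. CPM used 1 TMM scaling over all libraries. Nothing says that mice of a group came from separate litters, and 3 to 5 mice a group limit the precision.

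Alternatives were DESeq2 1.42.0, fits without sex or with the replicate number as a block instead, scaling by DESeq2 size factors or library size alone, a minimum of 10 counts in every sample or no filter, 1 model for all samples, and each mouse left out. The WT males alone at 14-dpf, and the pathway lists without sex, were added after seeing the data. The 10 genes, the lists and the alternatives were chosen with earlier results of these data known. Named were the 10 genes, Apex1, all called genes of a pathway list and time if 4 or fewer and otherwise the 2 with the largest change each way, and the 3 genes most like each of the 10 with a mean of at least 1 CPM (prior count 2). One gene that this rule names is not reported here. RefSeq promoters held 5 of the 10.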

Additional observations from a re-analysis of the deposited data

Results flagged for a closer look

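In 5 of the 50 combinations of gene and group with at least 4 mice, 1 mouse stood apart from the rest by Dixon's criterion, which chance flags about 1 time in 20. Bmp7 was at 2.10 CPM in the 3-dpf library 3 labelled Apex1 KO, against 0.694 to 0.919 in the other libraries of its group. Bmp7 was at 4.47 CPM in the 6-dpf WT mouse 1, against 1.45 to 2.32. Grem1 was at 14.8 CPM in the 3-dpf WT mouse 2, against 7.60 to 7.64, and at 27.6 CPM in the 10-dpf WT mouse 1, against 13.3 to 13.7. Chrdl1 was at 86.6 CPM in the 6-dpf WT mouse 1, against 75.4 to 78.0. These 5 values came from 4 mice, all females.

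The genotype difference changed between 3- and 6-dpf by −0.89 on the log2 scale for Bmp2, by −1.46 for Bmp6 and by −1.51 for Nog, each past the threshold in the test of that change itself.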

How the results depend on the processing

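Of 54 values of the 10 genes with an unadjusted p below 0.05 or genotypes apart, 0 changed sign under any alternative or without any mouse. Of the other 46, 23 changed sign under one or the other and 0 were called. Of 13 same-numbered pairs of mice 5 correlated above 0.1 (range −0.266 to 0.418). With so few pairs this cannot settle whether the replicate numbers pair the mice. With the replicate number as a block in place of sex, 1 of the 10 genes was called at 6-dpf, 2 at 14-dpf and 0 for the change from 3- to 6-dpf, and over all genes 1 at 3-dpf, 677 at 6-dpf, 90 for the change of the difference from 3- to 6-dpf, 1621 for the 3- to 6-dpf change in Apex1 KO mice and 656 for their 10- to 14-dpf change. The genotype calls lost under this block were Bmp2, Nog and Chrdl1 at 6-dpf and Bmp4, Grem1 and Fst at 14-dpf. Also lost were Bmp2, Bmp6 and Nog for the early change of the difference. Both rises of Bmp7 in WT mice and the early rise of Chrdl1 in Apex1 KO mice were lost as well. In the correlations themselves, which involve no block, 4 Apex1 KO samples correlated best with the WT sample of their own number.

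With all mice, DESeq2 called 85 genes at 3-dpf, 2187 at 10-dpf, 718 and 465 for the change of the difference from 3- to 6-dpf and from 10- to 14-dpf (3 of the 10 genes in the latter) and 550 for the late change in Apex1 KO mice. Without sex the counts were 750 at 10-dpf, 6849 at 14-dpf and 672 for the late Apex1 KO change, and 6181 at 14-dpf with the WT males alone. Library size alone gave 3594 at 6-dpf, 433 and 8 for the early and late changes of the difference. It shifted the median of all genes at 6-dpf to 0.20 and at 14-dpf to 0.31 on the log2 scale, and lower calls made up 22.6% and 29% there, against 51.4% and 62.2% with TMM. At 10-dpf they were 35.3% against 53.3%. No filter gave 4 genes at 3-dpf, 207 for the late change of the difference (2 of the 10) and 217 for the late Apex1 KO change, and one model gave 38 at 3-dpf, 6188 at 14-dpf, 410 for the early change of the difference and 507 for the late Apex1 KO change.

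Leaving out single mice gave 0 to 10 called genes at 3-dpf, 890 to 2359 at 6-dpf, 42 to 1827 at 10-dpf, 1206 to 3773 at 14-dpf, 104 to 450 and 2 to 206 for the early and late changes of the difference, 1223 to 3258 for the early and 0 to 252 for the late Apex1 KO change and 1162 to 2760 for the late WT change. Among the 10 genes it gave 1 to 5 calls at 6-dpf, 0 to 4 at 10-dpf, 3 to 6 at 14-dpf, 1 to 3 and 0 to 2 for the early and late changes of the difference and 0 to 1 for the late Apex1 KO change. The 14-dpf fit with sex could not be fitted without WT mouse 1. Mean levels scaled by library size alone moved by more than 1 SD in 6 of 80 cases, to 17.2 CPM for Bmp6 in Apex1 KO mice at 14-dpf, 3.37 for Nog, 6.16 for Chrd and 41.8 for Chrdl1 in WT mice at 14-dpf, and 54.3 and 71.3 for Chrdl1 in WT mice at 3- and 6-dpf. The cause of these changes was not tested.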
